A study of Homo sapiens with 7 samples.

Results

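The elastic fibre genes studied here were 10 genes whose products build, decorate or cross-link elastic fibres: ELN, FBN1, FBN2, MFAP5, LOX, EFEMP1, EFEMP2, FBLN1, FBLN2 and FBLN5. They were chosen by their role in the fibre, with earlier results of these arrays known, and the probe set that stands for each gene was selected on its mean signal over the arrays. They are 10 of 12726 genes with a measurable signal, and 26 of 54675 probe sets on the array. A signal is the deposited MAS 5.0 intensity of a probe set on 1 array, and a log2 fold change is the difference of log2(signal + 16) between conditions, which understates the change of dim genes. Every one of the 10 members reached a signal of 100 on at least 1 array, so 0 of them were below 100 on every array. Of the 26 probe sets, 3 stayed below 100 everywhere, the brightest of these being the fifth FBLN1 probe set with a highest value of 98.8, while the dimmest one kept, the fourth of FBLN1, peaked at 156.

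RNA came from human dermal fibroblasts at passage 10, on 7 arrays in 6 conditions: progerin with FTI (1 array), progerin (1), prelamin A with FTI (1), prelamin A with ZMPSTE24 (1), prelamin A (1) and control (2). Prelamin A is the precursor of the nuclear envelope protein lamin A. It is farnesylated and then trimmed by the protease ZMPSTE24. Progerin is the shortened form made in Hutchinson-Gilford progeria, which lacks the ZMPSTE24 cleavage site and stays farnesylated. FTI is a farnesyltransferase inhibitor, given at 10 nM for 48 h. The study's methods describe a lentiviral vector with a CMV promoter for progerin and prelamin A, but do not say which vector made the array lines or carried ZMPSTE24. All conditions keep their own lamin A gene. The labels do not say whether control cells carried an empty or GFP virus, nor whether the 2 control arrays came from separate cultures, so p-values rest on how far these 2 arrays happen to differ, a spread that could be technical. The title of the prelamin A with FTI array leaves out prelamin A, which its source and treatment labels name.

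An elastic fibre has a core of cross-linked elastin laid on a scaffold of microfibrils. Fibrillins polymerise into the microfibrils, fibulins help tropoelastin bind to them, and lysyl oxidases oxidise lysines so that the elastin becomes insoluble. In skin these fibres give recoil, and dermal fibroblasts are their main source. Elastic fibres also tether latent TGF-beta through fibrillin and the latent TGF-beta binding proteins.

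The arrays had median signals of 64.9 to 77.0 and trimmed means of 500.07 on every array. Fibroblast markers fitted the label, with 10 of 10 at 100 or more on every array and a summed signal between 246200 and 292498. Of other cell types, 3 of 4 keratinocyte, 2 of 3 endothelial, 3 of 3 melanocyte, 1 of 3 leukocyte, 2 of 3 smooth muscle and 2 of 2 epithelial markers stayed below 100 on every array. KRT10, an epidermal keratin, was below both controls on all 5 lamin-expressing arrays (4980 to 6516, against 10671 and 7555). CD14, a monocyte marker, was above them (198 to 575, against 87.2 and 55.3), while PTPRC, the defining leukocyte marker, stayed between 19.8 and 55.5 on all arrays. CNN1, a smooth muscle marker, was 1706 and 1325 in progerin cells with and without FTI, 913, 766 and 370 in prelamin A cells with FTI, with ZMPSTE24 and alone, and 561 and 405 in controls, with MYH11 and DES below 100 throughout. The part of these markers in the member values below was not tested. The transgenes did not stand out in the array values. On the brightest of 6 LMNA probe sets the signal was 15240 and 16289 in progerin cells with and without FTI, 9814, 9488 and 8498 in prelamin A cells with FTI, with ZMPSTE24 and alone, and 9300 and 14029 in controls. On the array labelled prelamin A, 4 of the 6 LMNA probe sets were below both controls and the 2 dimmest were above them. The single ZMPSTE24 probe set gave 5195 and 5073 in progerin cells with and without FTI, 5180, 5779 and 6120 in prelamin A cells with FTI, with ZMPSTE24 and alone, and 4841 and 4973 in controls. All 5 lamin-expressing arrays were thus above both controls, and the array labelled with ZMPSTE24 was below that of prelamin A alone. No source used here says whether these probes lie in the expressed constructs, and the group names below are those of the labels. The 3' to 5' signal ratio of beta-actin, a sign of RNA or labelling quality, was 1.62 in prelamin A cells and 1.5 after ZMPSTE24 was added, against 1.24 and 1.06 in controls. The same ratio of GAPDH did not rise with it, at 0.861 and 0.892 on these 2 arrays, against 0.879 and 0.943 in controls.

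The promoters of 2 pairs of related genes are shown, chosen after their values were seen. FBN1 and FBN2 lay below both controls on all 5 lamin-expressing arrays with every probe set that had signal, while FBLN2 with its single probe set and FBLN1 with 2 of 4 lay above them. Promoter windows, from 250 bases before to 50 bases after the transcription start, come from RefSeq on GRCh38.p14 and were matched by symbol for 7 of the 10 members. The positions are chr15:48644921-48645220 on the minus strand for FBN1, chr5:128538196-128538495 on the minus strand for FBN2, chr22:45502633-45502932 on the plus strand for FBLN1 and chr3:13548875-13549174 on the plus strand for the first of 2 FBLN2 windows. The FBN1 window belongs to a start inside the gene, whose range reaches 48645709, so sequence at its outer end is not shown. The windows of the other genes span the outer end of theirs. Capitals mark GC boxes, GGGCGG or its reverse complement CCGCCC, and matches may overlap.
FBN1: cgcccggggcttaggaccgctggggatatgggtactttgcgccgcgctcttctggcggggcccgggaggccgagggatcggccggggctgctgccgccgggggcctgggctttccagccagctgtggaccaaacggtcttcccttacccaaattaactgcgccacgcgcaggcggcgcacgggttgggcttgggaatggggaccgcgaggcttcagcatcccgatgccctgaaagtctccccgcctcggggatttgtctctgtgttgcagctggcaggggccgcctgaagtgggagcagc
FBN2: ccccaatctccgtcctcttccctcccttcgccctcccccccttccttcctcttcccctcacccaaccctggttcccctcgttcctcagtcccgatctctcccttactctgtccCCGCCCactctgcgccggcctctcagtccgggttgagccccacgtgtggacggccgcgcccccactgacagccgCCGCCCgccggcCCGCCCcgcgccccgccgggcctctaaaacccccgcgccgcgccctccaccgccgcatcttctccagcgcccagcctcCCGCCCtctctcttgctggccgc
FBLN1: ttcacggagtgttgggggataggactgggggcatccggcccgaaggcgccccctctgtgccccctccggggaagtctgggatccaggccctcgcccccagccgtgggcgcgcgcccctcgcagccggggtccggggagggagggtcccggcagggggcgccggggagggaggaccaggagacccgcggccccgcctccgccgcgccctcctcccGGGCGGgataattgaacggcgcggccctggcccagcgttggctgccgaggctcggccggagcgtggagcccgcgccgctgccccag
FBLN2: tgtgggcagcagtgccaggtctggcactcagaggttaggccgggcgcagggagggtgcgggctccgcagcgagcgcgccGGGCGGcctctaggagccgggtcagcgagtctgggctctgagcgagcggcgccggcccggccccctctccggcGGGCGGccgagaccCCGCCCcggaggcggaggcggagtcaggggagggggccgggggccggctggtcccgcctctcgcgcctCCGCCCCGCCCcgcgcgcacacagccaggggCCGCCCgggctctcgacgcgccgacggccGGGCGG

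All 4 windows were GC-rich, with 68.3% G and C in FBN1, 72.7% in FBN2, 78% in FBLN1 and 81% in FBLN2, against a median of 58.7% over all 35116 windows. GC boxes numbered 0 in the FBN1 window, 4 in FBN2, 1 in FBLN1 and 7 in FBLN2, and 45.0% of all windows hold at least 1. The letters TATAAA, held by 11.5% of windows, and the AP-1 letters TGANTCA, held by 7.71%, were searched on both strands and are in none of the 4. Both the lower pair and the higher pair thus held 1 window with several GC boxes and 1 with few or none. A match is a description of the sequence.

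Elastin itself was variable and dim. ELN, on chromosome 7 at 74028173 to 74069907 of GRCh38.p14, encodes tropoelastin, the soluble precursor of the fibre core. Its signal was 302 in progerin cells with FTI and 377 in progerin cells. It was 322 with prelamin A and FTI, 32.8 with prelamin A and ZMPSTE24, and 843 with prelamin A alone. The 2 controls had 215 and 534. The controls alone differed by 2.48-fold, and 9.28% of all genes differed by more than 2-fold between them. Progerin cells were inside the control range, so that the progerin value of 0.14 log2 (SE 0.60) was within the spread. Prelamin A cells were 1.27 log2 above the mean of the controls (SE 0.60, adjusted p = 0.524 by limma), short of a call, and 1.58-fold above the higher control. The low array was prelamin A with ZMPSTE24, where ELN fell by 4.14 log2 against prelamin A alone (SE 0.70, adjusted p = 0.653 by limma). As 32.8 is under the signal minimum of 100, the fold is a limit, and with the dim array set at 100 ELN was at least 8.43-fold lower. The second ELN probe set gave 46.1 on that array and 235 with prelamin A alone, a fitted difference of -2.02 log2 (SE 0.45) and at least 2.35-fold lower by the same limit, so both probe sets had their lowest value there. Between highest and lowest array ELN differed by at least 8.43-fold, against 1.23-fold for MFAP5.

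The fibrillins stood lower on all 5 lamin-expressing arrays. FBN1, on chromosome 15 at 48408313 to 48645709, encodes fibrillin-1, the main structural protein of microfibrils and the gene mutated in Marfan syndrome. Its brightest probe set gave 14201 and 16335 in progerin cells with and without FTI, 14847, 19735 and 14716 in prelamin A cells with FTI, with ZMPSTE24 and alone, and 31146 and 24140 in controls. No lamin-expressing array reached either control, on this or on the other 2 FBN1 probe sets. The difference was -0.75 log2 (SE 0.35, adjusted p = 0.842 by limma) for progerin and -0.90 (SE 0.35, adjusted p = 0.443) for prelamin A, neither of which was called. On the second FBN1 probe set it was -1.07 (SE 0.35) and -1.61 (SE 0.35, adjusted p = 0.262), both past the call rule used below, and on the third -0.71, not called, and -1.37 (SE 0.35, adjusted p = 0.311), called, so the call for FBN1 depends on the probe set. FBN1 signal was at the 99.4 percentile of all probe sets.

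FBN2, on chromosome 5 at 128257909 to 128538245, encodes fibrillin-2, which is laid down early in microfibril formation and is abundant in the embryo. Signals were 2265 and 2397 in progerin cells with and without FTI, 2773, 2515 and 3505 in prelamin A cells with FTI, with ZMPSTE24 and alone, and 7556 and 6295 in controls. All 5 were below both controls, and the controls differed by 1.20-fold. FBN2 fell by 1.52 log2 with progerin (SE 0.34, adjusted p = 0.448 by limma), or 2.87-fold. With prelamin A the difference was -0.97 (SE 0.34, adjusted p = 0.383), which is 1.96-fold and just short of the 2-fold limit. The second FBN2 probe set gave -1.09 and -0.78, with 96.7 in progerin cells, under the signal minimum.

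MFAP5, microfibril-associated glycoprotein 2, on chromosome 12 at 8645943 to 8662826, binds fibrillins and sits on the microfibril. Its values were 31109, 28127, 32637, 32602 and 29338 on the lamin-expressing arrays, in the order progerin with FTI, progerin, prelamin A with FTI, prelamin A with ZMPSTE24 and prelamin A, and 34712 and 28417 in controls. The groups overlapped, and neither line differed from control by more than 0.16 log2 in size. The third MFAP5 probe set ran from 8694 with prelamin A to 21199 with progerin and FTI, and gave 0.37 with progerin and -0.69 with prelamin A (SE 0.38 each), neither called. MFAP5 and LOX were both at the 99.8 percentile of signal.

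LOX, lysyl oxidase, on chromosome 5 at 122063195 to 122078259, makes the aldehyde cross-links of elastin and collagen. It gave 35146 and 32168 in progerin cells with and without FTI, 25607, 29180 and 22411 in prelamin A cells with FTI, with ZMPSTE24 and alone, and 35789 and 36131 in controls. The controls agreed within 1.01-fold and all 5 other arrays were below them, if only slightly with progerin and FTI. The differences were -0.16 log2 with progerin and -0.68 (SE 0.32, adjusted p = 0.517 by limma) with prelamin A. The third LOX probe set gave -1.28 with prelamin A (SE 0.36, adjusted p = 0.353), with 5142 there against 11470 and 13618 in controls. Its values in progerin cells, 13679 with FTI and 10871 without, lay on either side of those controls.

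**Figure D1:**
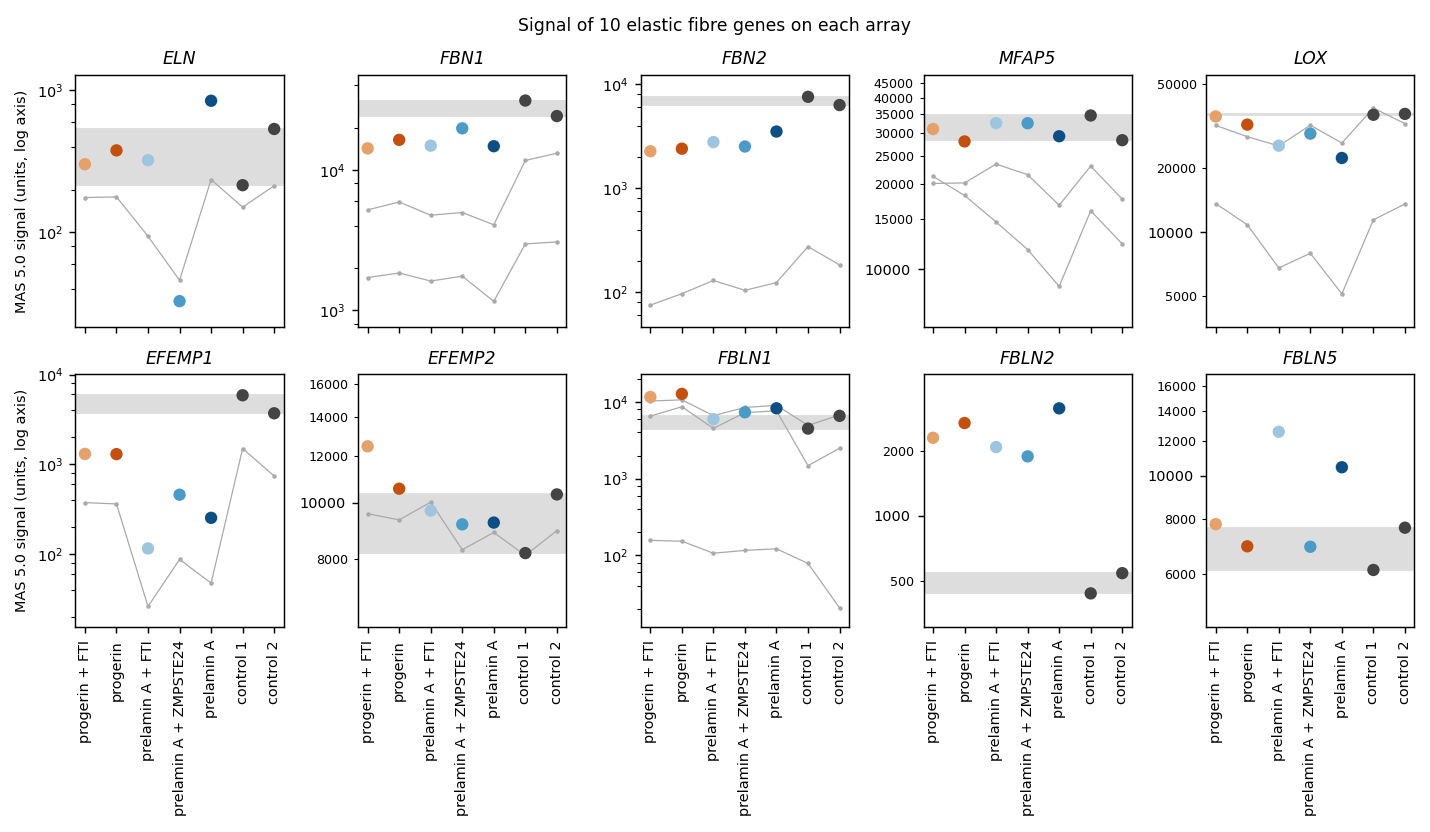
Signal of each member on the 7 arrays, on a log axis: coloured points are the probe set that stands for the gene, grey lines its other probe sets with signal, and the grey band the range between the 2 controls. FBN1, FBN2 and EFEMP1 sit below the band on all 5 lamin-expressing arrays, FBLN2 above it, and ELN has 1 array, prelamin A with ZMPSTE24, at 32.8.

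Of the fibulins, EFEMP1 had the widest range of all members. EFEMP1 (fibulin-3), on chromosome 2 at 55865967 to 55923782, is a secreted glycoprotein that binds elastic fibre components and is the gene of an inherited retinal dystrophy. Its signal was 1309 and 1303 in progerin cells with and without FTI, 116 with prelamin A and FTI, 461 with prelamin A and ZMPSTE24, 255 with prelamin A alone, and 5882 and 3705 in controls. All 5 arrays were below both controls, and the prelamin A arrays were lower than the progerin ones. In progerin cells EFEMP1 fell by 1.83 log2 (SE 0.42, adjusted p = 0.471 by limma), or 3.55-fold. In prelamin A cells it was 17.3-fold lower, -4.11 log2 (SE 0.42). This value was known when the genes were chosen and is given as a description with no p. Prelamin A against progerin gave -2.28 (SE 0.48, adjusted p = 0.618 by limma). It uses the same known prelamin A value, so it is a description and no new test. The second EFEMP1 probe set gave 376 and 363 in progerin cells with and without FTI, 26.3, 87.8 and 47.8 in prelamin A cells with FTI, with ZMPSTE24 and alone, and 1503 and 744 in controls. On both probe sets the lowest array was prelamin A with FTI and the highest the first control. EFEMP1 differed 50.6-fold between its highest and lowest array.

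FBLN2 was the one member above both controls on every lamin-expressing array. FBLN2, fibulin-2, on chromosome 3 at 13549125 to 13638404, binds fibrillin-1 and tropoelastin, and is found in elastic fibres and basement membranes. Signals were 2293 and 2683 in progerin cells with and without FTI, 2077, 1881 and 3137 in prelamin A cells with FTI, with ZMPSTE24 and alone, and 437 and 543 in controls. The lowest lamin-expressing array was above the higher control. FBLN2 rose by 2.42 log2 with progerin (SE 0.34, adjusted p = 0.291 by limma) and by 2.65 with prelamin A (SE 0.34, adjusted p = 0.127). It has only 1 probe set, so no second one could be set beside it.

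FBLN1, on chromosome 22 at 45502883 to 45601135, encodes fibulin-1, which is also found in elastic fibres. Its brightest probe set gave 11631 and 12772 in progerin cells with and without FTI, 5967, 7338 and 8271 in prelamin A cells with FTI, with ZMPSTE24 and alone, and 4493 and 6591 in controls. FBLN1 rose by 1.23 log2 with progerin (SE 0.39, adjusted p = 0.656 by limma), while prelamin A gave 0.60 and its FTI array overlapped the controls. The third FBLN1 probe set gave 6551, 8661, 4521, 7270 and 7664 on the same 5 arrays and 1474 and 2489 in controls. All 5 were above both controls, and it differed by 2.17 (SE 0.46, adjusted p = 0.496) with progerin and 1.99 (SE 0.46, adjusted p = 0.284) with prelamin A. The second FBLN1 probe set gave 0.88 and 0.64, and the fourth gave 1.52 and 1.23, where both controls were under the signal minimum and the folds were at least 1.52 and 1.21. The 4 FBLN1 probe sets with signal thus shared a direction and disagreed in size. The fifth, below 100 on every array, gave 73.9 with progerin and 55.3 with prelamin A, against 84.6 and 98.8 in controls.

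EFEMP2 (fibulin-4) and FBLN5 (fibulin-5) are the fibulins required for elastic fibre assembly in mice. EFEMP2, on chromosome 11 at 65866441 to 65872800, read 12486 and 10562 in progerin cells with and without FTI, 9685, 9174 and 9239 in prelamin A cells with FTI, with ZMPSTE24 and alone, and 8190 and 10326 in controls. FBLN5, on chromosome 14 at 91869411 to 91947694, read 7781 and 6933, 12587, 6917 and 10464 on the same arrays and 6130 and 7639 in controls. Both overlapped the controls. EFEMP2 was at 0.20 with progerin and 0.01 with prelamin A, and its second probe set at 0.13 and 0.06. FBLN5 was at 0.02 with progerin, and its difference of 0.61 log2 (SE 0.34) with prelamin A did not pass.

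**Figure D2:**
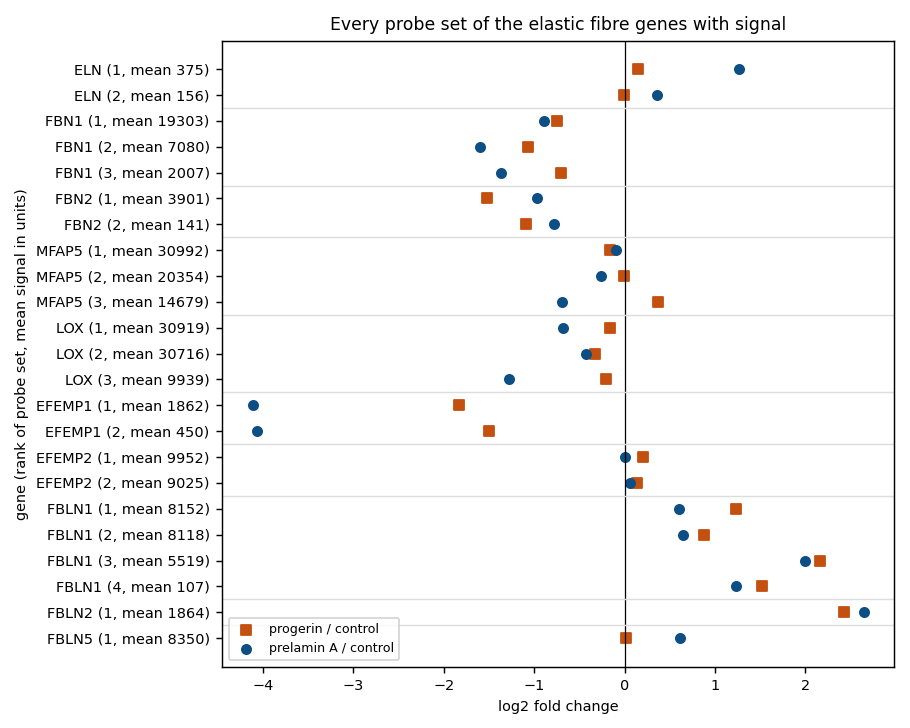
Log2 fold change of every member probe set with signal, against control, with squares for progerin and circles for prelamin A. FBN1 and EFEMP1 are below 0 on all their probe sets, and the third FBLN1 probe set is at 2.17 and 1.99.

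In progerin against control, 2 of 10 members were called higher (FBLN1, FBLN2) and 2 lower (FBN2, EFEMP1), where a call is a fold change over 2 with an unadjusted limma p under 0.05. Over all genes 3.76% were called higher and 2.04% lower. In prelamin A against control, 1 was called higher (FBLN2) and 1 lower (EFEMP1), against 6.29% and 4.02% of all genes. The EFEMP1 value there was known when the genes were chosen, so its count is a description from which nothing is read. The median log2 fold change over the 10 members was -0.07 with progerin and -0.05 with prelamin A, beside 0.01 and -0.02 over all genes. In each of these comparisons 0 of 12726 genes had an adjusted p under 0.05, although at an unadjusted p under 0.05 there were 860 genes with progerin and 1507 with prelamin A, 4 and 3 of them members. The 3 with prelamin A include EFEMP1 with its known value, so nothing is read from that count. Both comparisons share the 2 controls, so their values are not independent. Against progerin, prelamin A had 1 member called lower, EFEMP1, and 0 higher, against 3.46% and 3.59% of all genes. The known EFEMP1 value enters this count too, so nothing is read from it. Of all genes, 11.9% lay above both controls on all 5 lamin-expressing arrays and 12.3% below them. Among members 1 (FBLN2) lay above and 4 (FBN1, FBN2, EFEMP1, LOX) below. The known EFEMP1 value enters the count below, which is a description from which nothing is read. In bulk RNA, fewer cells making a transcript and less transcript per cell cannot be told apart.

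**Figure D3:**
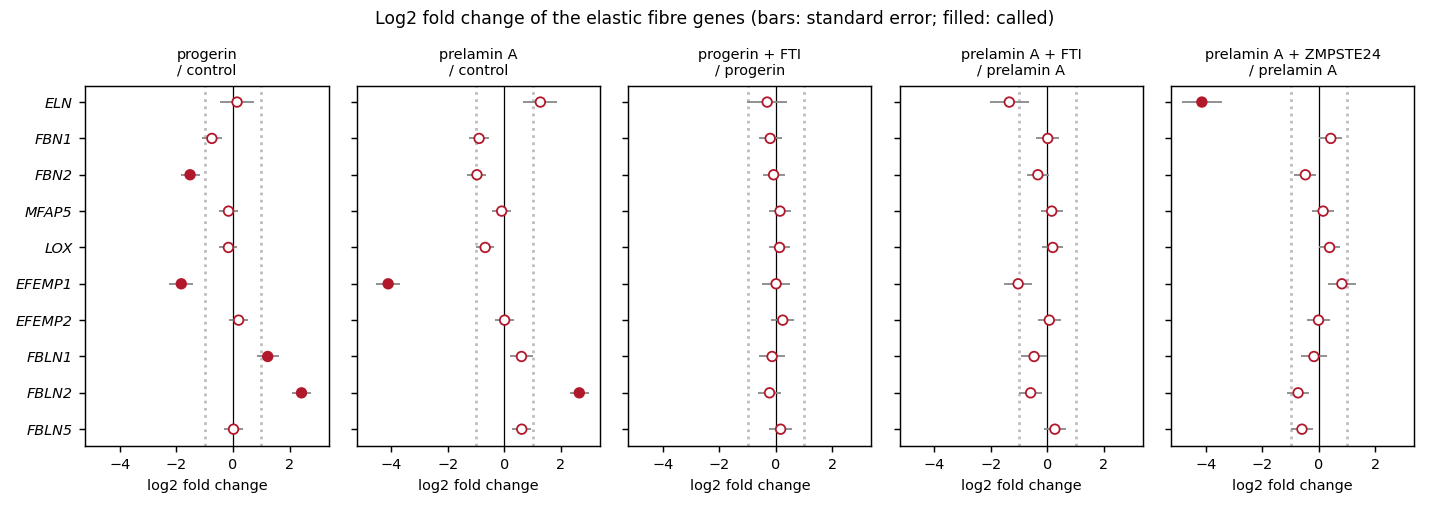
Log2 fold change with its SE for the 10 members in 5 comparisons, with filled points for those called and dotted lines at 2-fold. FBLN2 is at 2.42 with progerin and 2.65 with prelamin A, EFEMP1 at -1.83 with progerin and -4.11 with prelamin A, a value known when the genes were chosen, and ELN at -4.14 in prelamin A with ZMPSTE24 against prelamin A.

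In a second fit the 2 untreated lines formed 1 state, the lamin arrays, and the 3 treated arrays another. There FBLN2 was the called member in lamin arrays against control, at 2.54 log2 (SE 0.21, adjusted p = 0.0102 by limma), with 1 member higher and 0 lower against 0.464% and 0.0943% of all genes. In treated arrays against control, FBLN2 rose by 2.06 (SE 0.19, adjusted p = 0.0125) and FBN2 fell by 1.45 (SE 0.23, adjusted p = 0.0453), with 1 higher and 1 lower against 0.849% and 0.236%. EFEMP1, whose lines differ widely, gave -2.97 (SE 1.14, adjusted p = 0.401) and -3.42 (SE 1.04, adjusted p = 0.218). The first value, and the SE of both, use the known prelamin A value, so they are descriptions and no new test. The calls of FBLN2 and FBN2 were lost when certain single arrays were left out, in fits with fewer residual degrees of freedom. The log2 values of FBLN2 in such fits were 2.42 and 2.69 in lamin arrays against control. In treated arrays against control they ran from 1.91 to 2.21 for FBLN2 and from -1.58 to -1.32 for FBN2. FBLN2 lost its call in lamin arrays against control without the prelamin A array (adjusted p = 0.104) or without the second control (adjusted p = 0.054), and no member was called then. In treated arrays against control, FBN2 lost its call without any 1 of the 3 treated arrays or 2 controls (adjusted p = 0.114 to 0.178), and FBLN2 lost its own without the prelamin A with FTI array (0.056), the ZMPSTE24 array (0.0706), the first control (0.0593) or the second (0.0754). Treated against lamin arrays gave 0 called members and 0 called genes, 0% higher and 0% lower, by limma. At an unadjusted p under 0.05 there were 253 genes, 1 of them a member, FBLN2, at -0.48 log2.

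Few members were called after treatment. FTI on progerin cells gave 0 members called higher and 0 lower, against 0.503% and 0.951% of all genes, and the differences ran from -0.31 (ELN) to 0.24 log2. FTI on prelamin A cells gave 0 and 0, against 1.19% and 1.62%. By limma at an unadjusted p under 0.05, 185 genes stood out with FTI in progerin cells and 362 with FTI in prelamin A cells, 0 of them members. ELN was -1.35 (SE 0.70) and EFEMP1 -1.03 (SE 0.48) there, with adjusted p-values of 1, while the other 8 lay between -0.59 and 0.27. ZMPSTE24 on prelamin A cells gave 0 higher and 1 lower (ELN), against 2.18% and 2.85%. There EFEMP1 differed by 0.82 and FBLN2 by -0.73 log2, with neither called. The member medians were -0.04, -0.16 and -0.09 log2 in these 3 comparisons, beside -0.01, -0.01 and -0.02 over all genes. The FTI effects in the 2 lines did not differ by a called amount for any member, with ELN at -1.04 (SE 0.98) and EFEMP1 at -1.04 (SE 0.68), prelamin A minus progerin. The FTI and ZMPSTE24 comparisons in prelamin A cells, and prelamin A against control, share the single prelamin A array, so a deviation of that array enters each of them. Its beta-actin ratio of 1.62 was the highest of all 7 arrays, and its GAPDH ratio of 0.861 the lowest. ELN was 843 on it and 32.8 on the ZMPSTE24 array with a ratio of 1.5, and EFEMP1 was lowest on the prelamin A with FTI array, with a ratio of 1.26. What part RNA or labelling quality had in the ELN and EFEMP1 values was not tested.

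Other pathway genes were examined in lists chosen with earlier results known. Of 10 cross-linking enzymes and their processing factors, 8 were measured, and prelamin A cells had 5 called lower against control, with a list median of -1.06 log2. Over all genes 4.02% were called lower there, with a median of -0.02. With progerin 0 were called, against 2.04% of all genes. In the direct comparison of prelamin A against progerin, 2 of 8 were called lower, LOXL1 at -1.43 and LOXL4 at -2.75, against 3.46% of all genes. There LOXL2 at -0.53, BMP1 at -0.44 and PCOLCE at -0.43 were not called. LOXL4, a lysyl oxidase-like enzyme, gave 3606 and 3383 in progerin cells with and without FTI, 909, 3290 and 488 in prelamin A cells with FTI, with ZMPSTE24 and alone, and 4227 and 2827 in controls, so that it fell by 2.79 with prelamin A. It rose by 2.71 with ZMPSTE24 against prelamin A alone, and LOXL1, an enzyme needed for elastin renewal in mice, rose by 1.18. Over all genes 2.18% were called higher in that comparison. With prelamin A against control LOXL1 fell by 1.33. BMP1, which cleaves the LOX propeptide, fell by 1.26, and PCOLCE, an enhancer of procollagen processing, fell by 1.07. LOXL2 at -1.04 is added after its value was seen.

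Of 7 ADAMTS and ADAMTSL proteins that bind fibrillin or shape microfibrils, 4 were measured. With prelamin A 4 of 4 were called lower, against 4.02% of all genes, with a list median of -1.74 beside -0.02 over all genes. With progerin 0 were called lower, against 2.04%. In prelamin A against progerin 3 were called lower, against 3.46% of all genes, and THSD4 at -0.89 was not. ADAMTS10 was at -1.93, ADAMTS6 at -1.84, THSD4 at -1.64 and ADAMTSL4 at -1.01. ADAMTS10, ADAMTS6 and ADAMTSL4 rose with ZMPSTE24 against prelamin A alone by 1.61, 1.41 and 1.36, and ADAMTS10 with FTI by 1.62. Of all genes, 2.18% were called higher with ZMPSTE24 there and 1.19% with FTI. ADAMTS10 was at 62.6 with prelamin A, under the signal minimum, so that its folds are limits, at least 2.83-fold lower with prelamin A against control and at least 2.25-fold higher with ZMPSTE24. THSD4 was at 1.09 with ZMPSTE24, without a call. Of 16 microfibril and elastin-binding partners 15 were measured, and 1 was called lower in progerin against control, in prelamin A against control and in prelamin A with ZMPSTE24 against prelamin A, beside 2.04%, 4.02% and 2.85% of all genes. LTBP2, which binds fibrillin-1, was at -1.13 in progerin cells. EMILIN1, a glycoprotein of the elastin and microfibril interface, was at -1.43 in prelamin A cells. HMCN1, a hemicentin, was at -2.33 with ZMPSTE24 against prelamin A alone. In prelamin A against progerin FBLN7 was called lower at -1.07 and HMCN1 higher at 2.04, against 3.46% and 3.59% of all genes.

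Of 10 elastases, 9 were measured and 3 were called higher with prelamin A, against 6.29% of all genes. The fitted log2 fold changes were 5.82 for MMP12, macrophage elastase, 1.65 for MMP7 and 1.52 for CTSS. MMP12 and MMP7 were under the signal minimum in both controls, so that MMP12 was at least 32.9-fold and MMP7 at least 1.87-fold higher. MMP12 gave 45.1 and 66.7 in progerin cells with and without FTI, 341, 159 and 3291 in prelamin A cells with FTI, with ZMPSTE24 and alone, and 15.0 and 94.1 in controls. It fell by 3.21 with FTI and fell by 4.24 with ZMPSTE24 against prelamin A alone. MMP7, matrilysin, was at -1.28 with FTI and -1.75 with ZMPSTE24 in the same comparisons, and CTSS, cathepsin S, at -1.67 with FTI, all called. Of all genes, 1.62% were called lower with FTI there and 2.85% with ZMPSTE24. MMP7 was under the signal minimum on both treated arrays, at least 1.87-fold lower. With FTI in progerin cells CTSS was the called elastase, at -1.05, with 88.7 after FTI, against 0.951% of all genes called lower. In prelamin A against progerin MMP12 was at 5.32, MMP7 at 1.95 and CTSS at 1.31, all called, against 3.59% of all genes called higher. MMP12 and MMP7 were under the signal minimum in progerin cells, so there too they were at least 32.9-fold and 1.87-fold higher. CD14 was 575 on the ZMPSTE24 array, where MMP12 was 159, and 320 with prelamin A alone. The part of other cell types in the elastase values was not tested. Of 10 TGF-beta ligands and integrin subunits, 9 were measured, and 2 were called lower with prelamin A, against 4.02% of all genes. ITGA5, a subunit of the fibronectin receptor, was at -1.93 and ITGB8, of an integrin that activates latent TGF-beta, at -1.65. ITGB8 was at 2.14 with FTI and 1.83 with ZMPSTE24, each against prelamin A alone, beside 1.19% and 2.18% of all genes called higher. In prelamin A against progerin ITGA5 was at -1.59, ITGB3 at -1.30 and ITGB8 at -2.19, all called, against 3.46% of all genes called lower. ITGB3 was at 71.0 with prelamin A, under the signal minimum, so that its limit, at least 1.98-fold lower, was short of 2-fold. Most calls in these lists rest on the single prelamin A array. The ZMPSTE24 array had a similar beta-actin ratio, 1.5 beside 1.62, with LOXL4 at 3290 and ADAMTS6 at 712, against 488 and 257 with prelamin A alone. Other genes were low on both arrays. BMP1 was 337 with ZMPSTE24 and 425 with prelamin A alone, against 846 and 1285 in controls. PCOLCE was 3921 and 6116, against 10820 and 15250. The part of RNA or labelling quality in these values was not tested.

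**Figure D4:**
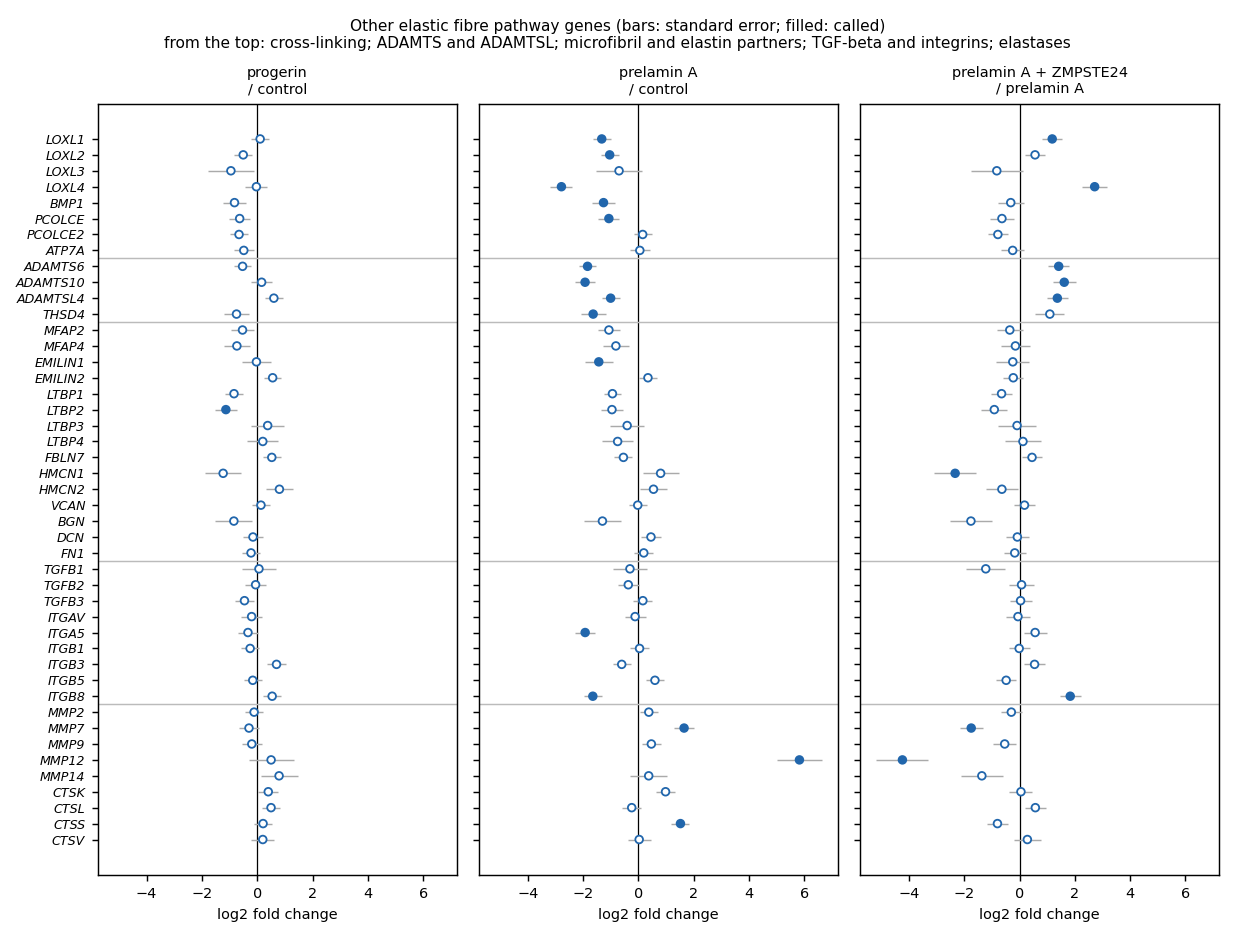
Log2 fold changes of the other pathway genes by list, in progerin against control, prelamin A against control and prelamin A with ZMPSTE24 against prelamin A. With prelamin A the cross-linking list has a median of -1.06 and the ADAMTS list of -1.74, and the fitted value of MMP12 is 5.82.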

How the data were processed

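Gene expression in human dermal fibroblasts was measured on 7 Affymetrix arrays. The authors deposited 1 table of intensity values, the linear MAS 5.0 signal per probe set after background correction, summarisation and scaling of each array, for which the submitters' notes give no version. The trimmed mean of every array was above the scaling target stated in the methods, which was not resolved. Of 54675 probe sets, 41091 were annotated to 1 gene, 1801 to several and 11721 to none, apart from 62 array controls, and 41037 of the single-gene ones matched a GRCh38.p14 RefSeq entry through their gene ID.

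Genes with a signal of 100 or more on at least 1 array were kept, with the probe set of highest mean signal standing for the gene. Values were tested as log2(signal + 16) with limma 3.58.1 in R 4.3.3 on all 12726 genes, and p-values were adjusted by Benjamini-Hochberg. The first fit had 6 conditions, 1 residual degree of freedom and 3.50 prior ones, and it takes the spread of single arrays from the controls. Its call, as in the study's results text, asked for more than 2-fold change and for an unadjusted p under 0.05. The S-score test of the methods, with a threshold of 0.01, needs probe-level values and was not run. The second fit had 3 states, 4 residual degrees of freedom and 2.60 prior ones, with calls at an adjusted p under 0.05. The 2 controls correlated at r = 0.959 over genes, although genes are no independent replicates. The fits were tested on simulated data.

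The 10 members and all gene lists were chosen with earlier results of these data known. All members are named. Of the other lists, genes called in at least 1 comparison with control or with the untreated line were named, up to 4 per list and comparison, those of largest change first, and genes named for prelamin A against progerin alone were added after their values were seen. A side under a signal of 100 on all its arrays was set at 100 to give the limit of a fold. As alternatives, arrays were median-centred or quantile-normalized, the pseudocount was set to 1 or 64, the filter was dropped or put on the mean, and a trended prior, the second probe set, a p of 0.01 or a block for the line was used. Each array was also left out in turn. With so few arrays, every value has limited precision.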

Additional observations from a re-analysis of the deposited data

Results flagged for a closer look

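EFEMP1 stood apart between the 2 lamin lines. Its signal was 255 in prelamin A cells and 1303 in progerin cells, a difference of -2.28 log2 (SE 0.48, adjusted p = 0.618 by limma), which passed the call of over 2-fold with an unadjusted p under 0.05. It was singled out because the contrast of the 2 lines passed that call. The EFEMP1 value in prelamin A cells was known when the genes were chosen and enters this contrast, so it is a description and no new test. The second EFEMP1 probe set had 47.8 in prelamin A cells and 363 in progerin cells. Each line is 1 array, so the spread comes from the controls.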

How the results depend on the processing

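In the 6-condition fit, 528 of 540 member values under the alternatives were counted as unchanged, 4 gained a call, 2 lost one and 6 turned sign. The values without a control have no p, and counted as unchanged when they moved by less than the SD of the controls. That was certain in advance, and neither sign nor call was checked for them. ELN in progerin cells, at 377, was below the second control at 534, so it turned sign without the first control, uncounted. So did FBLN5 in progerin cells (6933 against 7639 in the second control). In prelamin A cells EFEMP2 (9239 against 10326) and MFAP5 (29338 against 28417) did the same. In the 3-state fit 297 of 316 kept their direction and their side of the call, 1 gained a call, 15 lost one and 3 turned sign. Under median centring FBLN5 was -0.024 in progerin against control and EFEMP2 0.018 in prelamin A and ZMPSTE24 against prelamin A. With the second brightest probe set ELN was -0.012 in progerin against control, MFAP5 -0.0058 in progerin and FTI against progerin, and, in prelamin A and FTI against prelamin A, FBN2 was 0.059 and LOX -0.046. Leaving out 1 array, in lamin arrays against control, EFEMP2 ran from -0.064 to 0.27 and MFAP5 from -0.27 to 0.016, and in treated arrays against control MFAP5 ran from -0.11 to 0.18. The members called in prelamin A and FTI against prelamin A were 0, but 1 with the second brightest probe set (ELN, -1.19) and 1 with an intensity trend (EFEMP1, -1.03). With the second probe set FBN1 gained a call in both lines (-1.07 and -1.61), and FBLN1 lost its own in progerin against control (0.88), as it did at a p of 0.01. The members called in treated arrays against control were 2, but 1 under median centring, with a pseudocount of 1 or with no filter, in each case because FBN2 lost its call (adjusted p = 0.0613, 0.0557 and 0.0882). With the second probe set FBN2 also lost its call there (-1.04, adjusted p = 0.167 by limma), while FBN1 gained one (-1.32, adjusted p = 0.0481). Leaving out 1 array, the members called there ran from 0 to 2, and those in lamin arrays against control from 0 to 1. The cause was not tested. By fold alone, members over 2-fold in prelamin A against control were 3, with 2 left without the first control and 5 without the second. This count was added after seeing the data and has no share over all genes beside it. It includes the known EFEMP1 value, so nothing is read from it. Without a control the 6-condition fit has no residual degrees of freedom and gives no calls. No paired analysis was possible by replicate number because only the controls carry one. Treated and untreated arrays share a line, and with line as a block the counts of members called were 1 in lamin arrays against control, 2 in treated arrays against control and 0 in treated against lamin arrays.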
